A study of Mus musculus with 7 samples.

Results

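The genes described here are Atf4 and its known targets in amino acid supply, 33 genes of the 51789 in the deposited count table. They comprise 8 regulators, 10 enzymes of amino acid synthesis, 5 amino acid transporters and 10 tRNA synthetases, the enzymes that load each amino acid onto its transfer RNA. They were chosen by name as members of one response, and Slc1a4 was in addition selected on its values in these libraries, since it had been seen higher in every knockout library. All 33 matched 1 row of the table each, and 31 of them were among the 12506 genes with enough counts to be tested. The other two, Cth and Cbs, had 0 counts in all 7 libraries.

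The study measured polyA RNA of mouse granulocytes with a QuantSeq kit, which counts transcripts by tags from their 3′ ends. Alox15, a lipoxygenase that oxidises polyunsaturated fatty acids, was wild type in 4 libraries and knocked out in 3, and every library was labelled untreated. The sources used here do not state the animals' age, the source tissue, the sorting or which exons of Alox15 were removed. Whether replicates are separate animals is not stated either, so p-values reflect library-to-library spread only, which may in part be technical.

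ATF4 is a transcription factor whose protein is made when the initiation factor eIF2 is phosphorylated, which happens when uncharged tRNA activates the kinase GCN2 and under other stresses. It raises genes that make, import and charge amino acids, and also genes such as Ddit3, Trib3 and Ppp1r15a that tune or end the response. Much of its control is over translation, so the level of Atf4 RNA is not a measure of ATF4 protein.

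Total counts ran from 3228292 to 5657192 per library. Alox15 itself had 0 counts in the 4 wild-type libraries and 1 count in knockout 1, so it checks no label. Mature neutrophil markers were present in all 7 libraries, with summed levels of 2721 to 28040 CPM (counts scaled to a common library size) in wild type and 2091 to 23525 CPM in the knockouts. Wild type 2 and knockout 3 stood apart with the lowest sums of these 10 markers. The eosinophil gene Epx and the basophil and mast cell genes Ms4a2, Mcpt8 and Fcer1a had 0 counts in every library. Other markers of these cells had counts. Cpa3, of basophils and mast cells, was at 1.79 to 24.7 CPM in the wild types and 5.45 to 13.6 CPM in the knockouts. The eosinophil marker Siglecf was at 0.596 to 11.4 CPM in the wild types and 0.779 to 10.3 CPM in the knockouts. Ccr3, also of eosinophils, was at 0.626 to 5.98 CPM and 0.389 to 3.30 CPM, and Prg2 had 2 counts in all. The summed T and NK cell markers reached 332 to 677 CPM in the wild types and 403 to 938 CPM in the knockouts. Knockouts 2 and 3 carry another stem in their sample description than the other 5 libraries, and also stood apart by Xist, at 382 and 102 CPM against at most 6.11 CPM elsewhere. The Y-linked gene Ddx3y was at 0.306 and 0.195 CPM in them, against 19.3 to 119 CPM elsewhere. The Y-linked Eif2s3y, Kdm5d and Uty were at 0 CPM in both, and elsewhere only Uty was at 0 CPM, in wild type 4. Stem and sex-linked expression cannot be told apart from genotype in those libraries.

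ATF4 binds with C/EBP proteins to a composite element whose usual core reads TGATGNAA, where N is any base. The element was searched on both strands of RefSeq promoter windows (GRCm38.p6, from 250 bases before to 50 bases after each annotated start). Of the 27 members with a window, 10 held the letters (37.0%), against 1219 of 27025 genes (4.51%) over the whole promoter table. With C as the central base, TGATGCAA, the counts were 7 of 27 members (25.9%) and 279 of 27025 genes (1.03%). The members were chosen as known ATF4 targets, so these shares are a description and not independent evidence about the list. By role, the share was 5 of 7 for tRNA synthetases, 2 of 8 for regulators, 2 of 9 for synthesis enzymes and 1 of 3 for transporters. The stretches shown here are those of Slc1a4, of 2 regulators, of 2 synthesis enzymes and of the tRNA synthetase gene Tars, to let the match be compared between roles. Each is written 5′ to 3′ along the gene's own strand with the match in capitals; where the element lies on the opposite strand it reads as its reverse complement.
Slc1a4 (chr11:20332700-20332727, minus strand): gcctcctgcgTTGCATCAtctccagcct
Trib3 (chr2:152344029-152344056, minus strand): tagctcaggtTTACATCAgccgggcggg
Chac1 (chr2:119351039-119351066, plus strand): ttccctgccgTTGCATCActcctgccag
Asns (chr6:7693215-7693242, minus strand): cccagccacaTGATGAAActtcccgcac
Pycr1 (chr11:120643834-120643861, minus strand): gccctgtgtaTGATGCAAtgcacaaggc
Tars (chr15:11399656-11399683, minus strand): aggagtcccgTTGCATCAgctggttagc

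In Slc1a4 the match spans the annotated start, from position -4 to position 4. In Asns it ends 16 bases before the start, and in Tars 8 bases before it. Chac1 has it farthest upstream of those shown, from position -193 to -186. These matches describe the sequence and are not shown to be bound in granulocytes, and a window without the letters says nothing about binding elsewhere.

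No member passed the test between genotypes. Over all 12506 genes, edgeR's quasi-likelihood test with Benjamini-Hochberg adjustment called 0 genes higher in knockout (0%) and 0 genes lower (0%), with 154 genes at an unadjusted p under 0.05. DESeq2 called 1 gene, which was not a member, with 213 genes at an unadjusted p under 0.05, and limma-voom called 0 genes with 534 at that level. Among the members, fitted differences were positive in 23 and negative in 8, with a median log2 fold change of 0.17 against 0.01 over all tested genes. Leaving out Slc1a4, 22 were positive and 8 negative, with a median of 0.16. Without knockout 3 the members' median was -0.02, with 14 positive and 17 negative, against -0.045 over all tested genes. With the description stem as a covariate the members' median was -0.06, again with 14 positive and 17 negative, against -0.027 over all tested genes. With that covariate the differences of Atf5, Phgdh, Psph, Shmt2, Mthfd2, Pycr1, Slc1a5, Gars, Nars, Sars and Yars turned negative and those of Ppp1r15a and Slc38a2 positive.

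**Figure D1:**
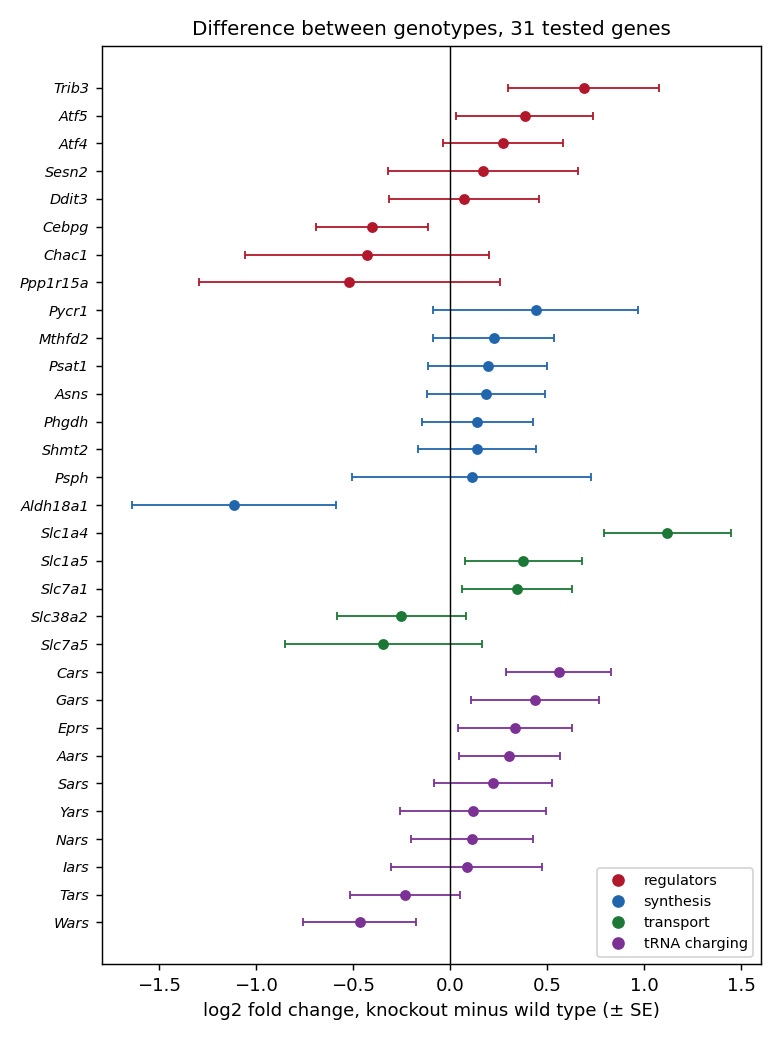
Fitted log2 fold change, knockout minus wild type, of the 31 tested genes, coloured by role (points; bars are ± SE of the edgeR fit; 4 wild-type and 3 knockout libraries). Slc1a4, at 1.12, was selected on this difference; of the others Trib3 lies highest at 0.69 and Aldh18a1 lowest at -1.11.

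All 3 knockout values lay above all 4 wild-type values for 2 of the 31 members, Slc1a4 and Aars, where 1.57% of all tested genes did so. Slc1a4 was selected for this pattern, and without it the count was 1 of 30. Knockout values lay below for 1 member, Wars, where again 1.57% of all tested genes did. The separations of Aars and Wars were narrow. With fewer libraries the count that lay above, Slc1a4 included, was 5 of 31 without wild type 1 (3.32% of all genes), 4 without wild type 2 (3.21%) and 6 without knockout 1 (4.92%). The count that lay below was 2 without wild type 1 (4.91% of all genes) or without knockout 3 (6.84%), and 0 without wild type 4 (2.69%).

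Slc1a4 encodes ASCT1, a sodium-dependent exchanger of alanine, serine, cysteine and threonine, and lies at chr11:20302180-20332713 on the minus strand (ENSMUSG00000020142). Its level was 15.8, 12.4, 17.5 and 12.4 CPM in wild type 1 to 4 and 28.2, 29.1 and 37.6 CPM in knockout 1 to 3. The means were 14.5 ± 2.54 CPM (SD, n = 4) and 31.6 ± 5.18 CPM (SD, n = 3), and the fitted log2 fold change was 1.12 ± 0.33 (SE). The knockout libraries held 145, 95 and 193 counts of the gene, against 53, 79, 88 and 47 counts in the wild types, so the depth behind each value was modest. Since the gene was selected on this pattern, the values are a description without a test.

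Other levels differed between the same libraries. All 8 monocyte and macrophage markers had positive fitted differences, and their sum was 139 to 442 CPM in the wild types and 1025, 507 and 177 CPM in knockout 1 to 3. The 4 B cell markers and the 3 tested stromal and epithelial markers were also all positive, with medians of 0.70 and 0.65. Of these, Sparc was at 8.54 to 27.9 CPM in the wild types and 28.8 to 37.7 CPM in the knockouts. Neutrophil markers gave 4 positive and 6 negative differences, and T and NK cell markers 5 and 3. Neutrophil markers, the description stem and Xist also varied, as given above. The part of these in the Slc1a4 values was not tested, and the selection of the gene fixes that every knockout lies above every wild type.

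**Figure D2:**
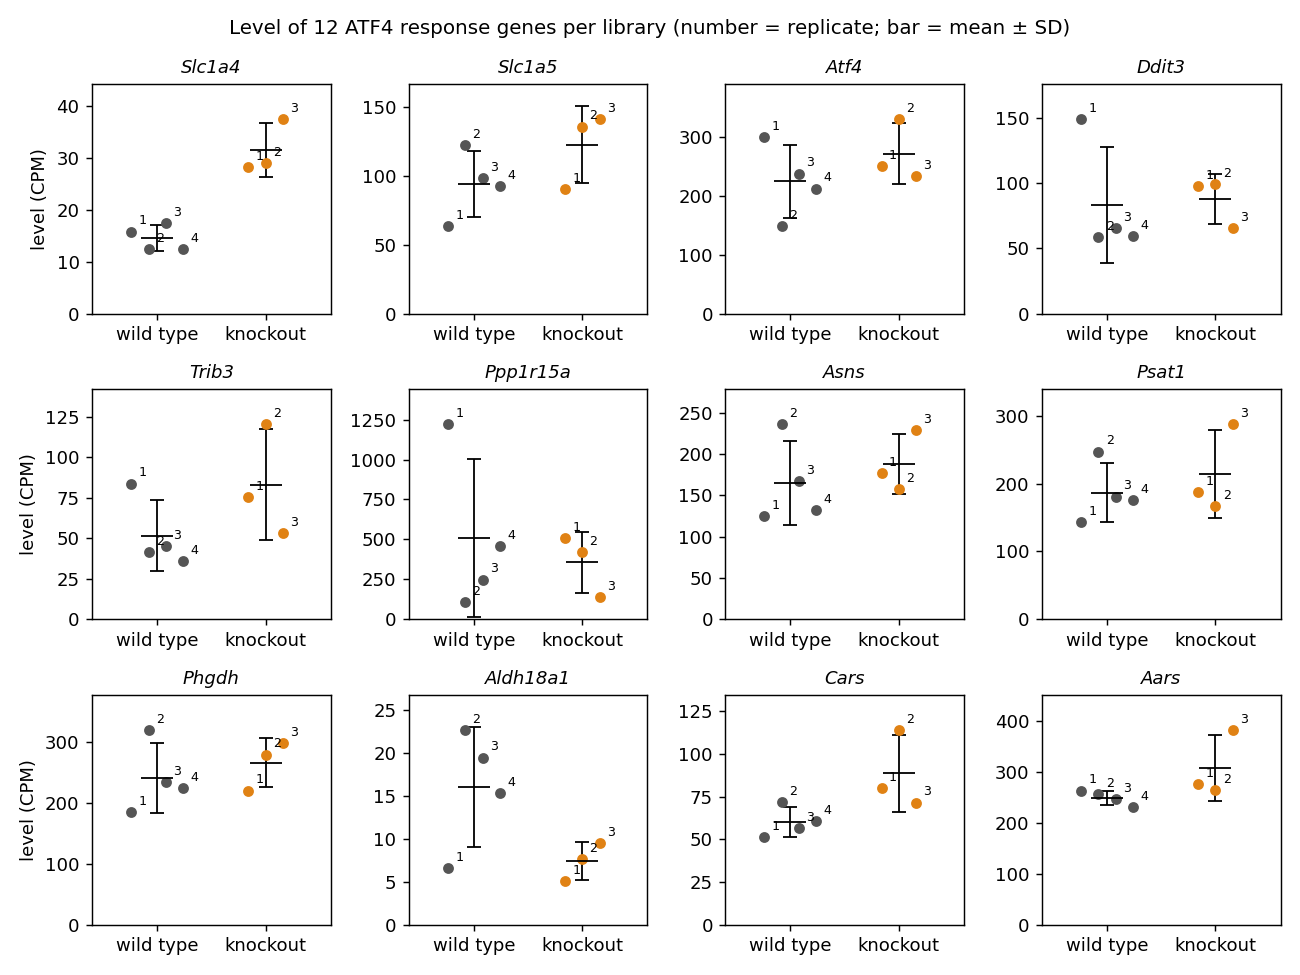
Level in CPM of 12 of the genes in each library (grey, wild type, n = 4; orange, knockout, n = 3; numbers are replicates, bars are mean ± SD). The groups are apart for Slc1a4 and, narrowly, for Aars; in the other panels they overlap.

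The regulators varied most between libraries. Their median ratio of highest to lowest library was 2.91, against 2.04 for synthesis enzymes, 2.23 for transporters and 2.11 for tRNA synthetases. Of 8 regulators, 5 had positive and 3 negative differences, with a median of 0.12, and none passed the test.

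Atf4 RNA was at 300.3, 149, 238 and 213 CPM in the wild types and 251, 331 and 234 CPM in the knockouts. Its groups overlapped, with a log2 fold change of 0.27 ± 0.31 (SE). Values in parentheses after the levels of a gene are this same quantity, knockout minus wild type, with its SE. Atf5, a related factor under similar translational control, was at 203, 98.7, 91.2 and 123 CPM in the wild types and 127, 152 and 226 CPM in the knockouts (0.38 ± 0.35). Knockout 3 and wild type 1 were its highest libraries, so the extremes came from both genotypes. Atf5 overlaps Nup62 on the opposite strand over 571 bases. These lie at the 5′ end of both genes, away from the 3′ ends that the kit counts. The strand setting of the counting was not given, so the assignment of any reads in the shared bases is uncertain.

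Trib3 encodes a pseudokinase that restrains ATF4 and AKT signalling. It was at 83.7, 41.5, 45.1 and 35.7 CPM in the wild types and 75.4, 120.4 and 53.4 CPM in the knockouts (0.69 ± 0.39). This was the largest positive difference of a member other than Slc1a4, and the groups overlapped through wild type 1. Ddit3, the factor CHOP, was at 149, 58.7, 65.6 and 59.6 CPM in the wild types and 98.0, 99.5 and 65.4 CPM in the knockouts (0.07 ± 0.39). Wild type 1 alone set the upper end of Ddit3. Ddit3 shares 68 bases with the methionine synthetase gene Mars1 on the opposite strand. These lie at the 3′ ends of both genes, so the assignment of reads there is uncertain for both.

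Ppp1r15a encodes GADD34, which directs the phosphatase that removes phosphate from eIF2. It is described in full because of its spread, seen in the data, of 11.4-fold between libraries, at 1222, 107, 248 and 459 CPM in the wild types and 509, 418 and 138 CPM in the knockouts (-0.52 ± 0.78). Wild type 2 and knockout 3, the libraries lowest in neutrophil markers, were the lowest and wild type 1 the highest. Chac1, an enzyme that degrades glutathione, ranged from 6.26 to 43.9 CPM in the wild types and from 13.2 to 21.8 CPM in the knockouts (-0.43 ± 0.63). Cebpg, a partner of ATF4, was at 103, 69.8, 61.8 and 66.2 CPM in the wild types and 48.8, 53.6 and 68.4 CPM in the knockouts (-0.40 ± 0.29). Sesn2, an inhibitor of mTORC1 that senses leucine, ranged from 14.9 to 46.0 CPM in the wild types and from 14.0 to 45.03 CPM in the knockouts (0.17 ± 0.49).

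Among synthesis enzymes, 7 of the 8 tested members had a positive difference and 1 a negative one, with a median of 0.16, and none passed the test. Of the 7 positive differences, 6 were 0.22 or smaller, and all 7 were below their standard errors. Phgdh, Psat1, Shmt2 and Mthfd2, which make serine or take one-carbon units from it, were all lowest in wild type 1.

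Asns, which makes asparagine, was at 125, 236, 167 and 132 CPM in the wild types and 177, 158 and 228 CPM in the knockouts (0.19 ± 0.31). Phgdh, the first enzyme of serine synthesis, was at 185, 319.8, 234 and 224 CPM in the wild types and 220.1, 279 and 297 CPM in the knockouts (0.14 ± 0.29). Psat1, the second enzyme, was at 144, 247, 181 and 176 CPM in the wild types and 187, 167 and 288 CPM in the knockouts (0.19 ± 0.31). In all 3 genes wild type 2 and knockout 3 were the highest libraries and the genotypes overlapped.

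Shmt2 and Mthfd2 carry out the mitochondrial steps that take one-carbon units from serine. Shmt2 ranged from 149 to 251 CPM in the wild types and from 156 to 280.4 CPM in the knockouts (0.14 ± 0.30). Mthfd2 was at 105, 208, 179 and 149 CPM in the wild types and 135, 219.6 and 207 CPM in the knockouts (0.22 ± 0.31). Psph, the last enzyme of serine synthesis, was low throughout, from 5.82 to 11.9 CPM in the wild types and from 2.72 to 13.8 CPM in the knockouts (0.11 ± 0.62).

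The enzymes of proline synthesis differed in sign. Aldh18a1, which starts the route from glutamate, was at 6.57, 22.7, 19.5 and 15.4 CPM in the wild types and 5.05, 7.66 and 9.54 CPM in the knockouts. Its log2 fold change was -1.11 ± 0.53 (SE), with an unadjusted edgeR p of 0.0613. Wild type 1 lay among the knockouts, while the other 3 wild-type libraries lay above all of them. Pycr1, which completes the route, was at 9.56, 8.30, 7.15 and 12.97 CPM in the wild types and 5.05, 16.5 and 17.1 CPM in the knockouts (0.44 ± 0.53), so knockout 1 was its lowest library and knockouts 2 and 3 its highest. Cth and Cbs, the enzymes that turn homocysteine into cysteine, had 0 of the 31979006 counts in the table. By counting error alone, this result leaves room for at most 0.0938 CPM. Cth shares 2231 bases on the same strand with Gm43314, a gene with 3 counts in all. How reads in the shared bases were assigned is not stated, so the limit is less certain for Cth.

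**Figure D3:**
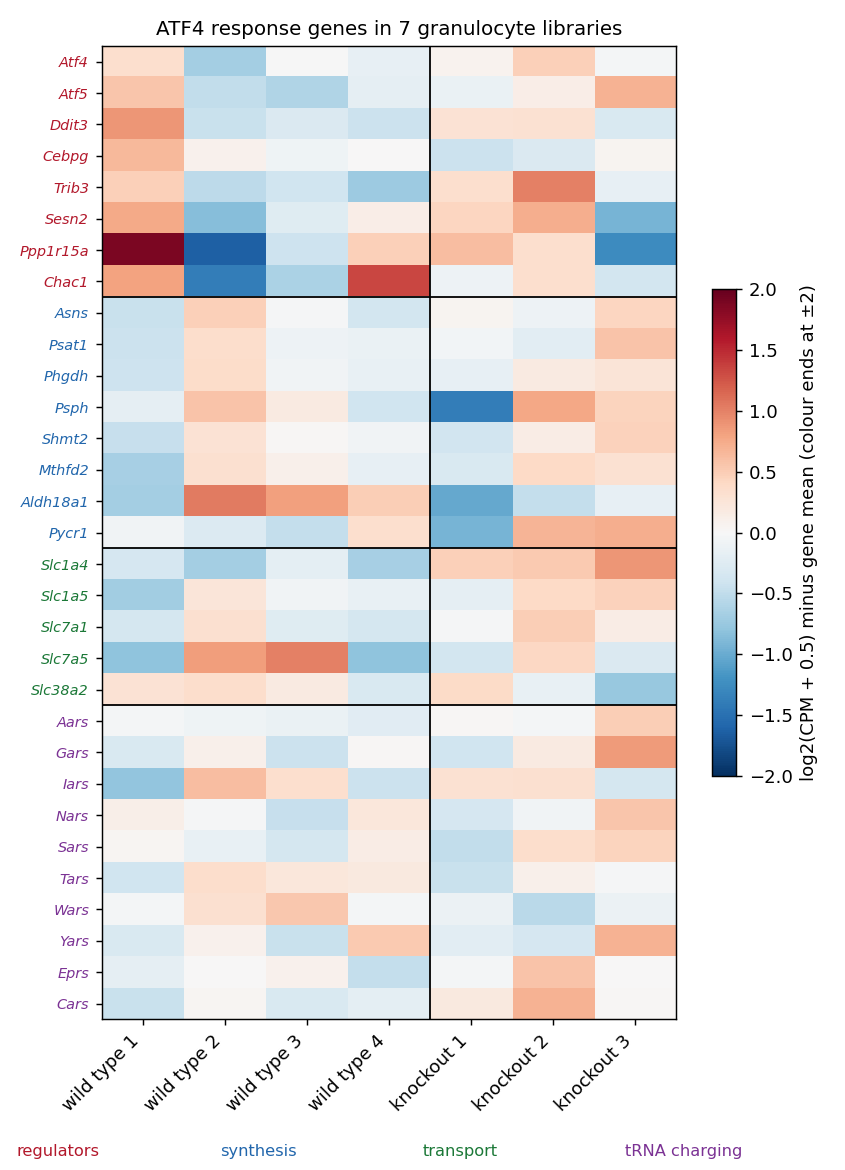
Level of each tested gene in each library, as log2(CPM + 0.5) minus the gene's mean over the 7 libraries (red above, blue below; colour ends at ±2), ordered by role. Most regulators are red in wild type 1, most synthesis enzymes are red in wild type 2 and knockout 3, and Slc1a4 is blue in all wild-type and red in all knockout libraries.

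Of the transporters beside Slc1a4, Slc1a5 and Slc7a1 had positive differences and Slc7a5 and Slc38a2 negative ones. Slc1a5 encodes ASCT2, the glutamine exchanger closest to ASCT1 in its family. It was at 63.6, 123, 98.7 and 92.7 CPM in the wild types and 90.8, 136 and 142 CPM in the knockouts (0.38 ± 0.30), with knockout 1 inside the wild-type range. Slc7a1, the carrier of arginine and lysine, was at 135, 215, 146 and 135 CPM in the wild types and 170, 241 and 191 CPM in the knockouts (0.35 ± 0.28). Slc7a5, the light chain of the large neutral amino acid exchanger LAT1, was at 30.5, 95.8, 108 and 30.4 CPM in the wild types and 41.4, 72.0 and 44.0 CPM in the knockouts (-0.34 ± 0.51). Its wild-type libraries fell into 2 high and 2 low values that enclosed all 3 knockouts. Slc7a5 lies inside Gm20388 on the opposite strand, a gene with 798 counts in all, so the assignment of its reads is uncertain. Slc38a2, the sodium-coupled carrier SNAT2, ranged from 195 to 308 CPM in the wild types and from 143 to 315 CPM in the knockouts (-0.25 ± 0.33).

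Among the 10 tRNA synthetases, 8 had positive and 2 negative differences, with a median of 0.17, and none passed the test. Aars, for alanine, was at 263.25, 256, 246 and 230.3 CPM in the wild types and 276, 264.6 and 383 CPM in the knockouts (0.31 ± 0.26). The groups did not overlap, but the lowest knockout lay only just above the highest wild type, and knockout 3 was the one value well clear of the wild types. The separation was lost with RLE or upper-quartile scaling and without the filter on low counts. Aars shares 1326 bases with Exosc6 on the same strand, a gene with 52 counts in all. Cars, for cysteine, had the largest difference of the group, at 51.1, 71.7, 56.4 and 60.9 CPM in the wild types and 80.1, 114 and 71.5 CPM in the knockouts. Its log2 fold change was 0.56 ± 0.27 (SE), with an unadjusted edgeR p of 0.0684. Knockout 3 lay just below wild type 2, so its groups touched; with RLE scaling they were just apart, at 74.8 CPM for the lowest knockout and 73.3 CPM for the highest wild type.

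Wars, for tryptophan, which interferon is also known to raise, was at 42.13, 54.7, 63.4 and 42.10 CPM in the wild types and 40.05, 29.7 and 40.12 CPM in the knockouts (-0.46 ± 0.29). It was lower in every knockout library, and this separation was lost with RLE or upper-quartile scaling and without that filter. Gars, for glycine, was at 112, 150.03, 103 and 141 CPM in the wild types and 105, 157 and 253 CPM in the knockouts (0.44 ± 0.33), and knockout 3 alone stood clear. Eprs, which charges both glutamate and proline, ranged from 246 to 363 CPM in the wild types and from 334 to 511 CPM in the knockouts (0.34 ± 0.29). The remaining members, Iars, Nars, Sars, Tars and Yars, had differences between -0.23 and 0.22, each smaller than its standard error.

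The members were also described by which libraries held their extremes, with no test. Wild type 1 was the lowest library for 9 of the 31 members, where 19.8% of all tested genes had their lowest value there, and 5 of those 9 were among the 8 synthesis enzymes (Asns, Psat1, Phgdh, Shmt2 and Mthfd2). It was the lowest for 0 of the 8 regulators. Wild type 1 was the highest library for 4 members, all regulators (Ddit3, Cebpg, Sesn2 and Ppp1r15a), where 20.1% of all tested genes had their highest value. Over all 31 members this is 12.9%, below that share, and Atf4, Atf5 and Trib3 were highest in a knockout library. Without scaling, 3 of 8 regulators were highest in wild type 1.

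Wild type 2 and knockout 3 together held the 2 highest values of 4 members, where 6.25% of all tested genes had this pattern. With TMM scaling all 4 were synthesis enzymes, namely Asns, Psat1, Phgdh and Shmt2. Other scalings kept these 4 and added others: 6 members with RLE (Mthfd2 and Gars added, 8.35% of all genes), 6 with no scaling (Aars and Gars added, 8.70%) and 8 with upper-quartile scaling (Mthfd2, Slc1a5, Aars and Gars added, 11.01%). The same libraries held the 2 lowest values of 2 members, the regulators Sesn2 and Ppp1r15a, where 16.3% of all tested genes did, so over all members the share, 6.45%, was below that of all genes.

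The summed regulators were highest in wild type 1 and lowest in wild type 2, and the summed synthesis enzymes lowest in wild type 1 and highest in knockout 3. Summed regulators were at 2137, 546, 783 and 1030 CPM in the wild types and 1162, 1242 and 812 CPM in the knockouts, and summed synthesis enzymes at 731, 1305, 1004 and 909 CPM in the wild types and 888, 1087 and 1339 CPM in the knockouts. The ratio of the synthesis sum to the regulator sum, which no scaling of whole libraries can move, was 0.342, 2.39, 1.28 and 0.883 in wild type and 0.765, 0.875 and 1.65 in knockout. All 3 knockout ratios lay inside the wild-type range. Ppp1r15a made up a large part of the regulator sum in wild type 1.

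Cell-type levels also had their extremes in these libraries. The mean log2 CPM of the mature neutrophil markers was 10.20, 6.99, 9.01 and 8.73 in wild type and 9.75, 9.38 and 6.27 in knockout, so wild type 1 was the highest and wild type 2 and knockout 3 the lowest. Summed proliferation genes were lowest in wild type 1, at 973 CPM, against 1071 to 1995 CPM elsewhere. Summed ribosomal protein genes were at 81990 CPM in wild type 1 and 226163 CPM in knockout 3, the ends of their range. T and NK cell markers were also lowest in wild type 1 and highest in knockout 3. The part of these levels in the order of the members was not tested, and in bulk samples fewer cells of a type and less RNA per cell cannot be told apart.

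**Figure D4:**
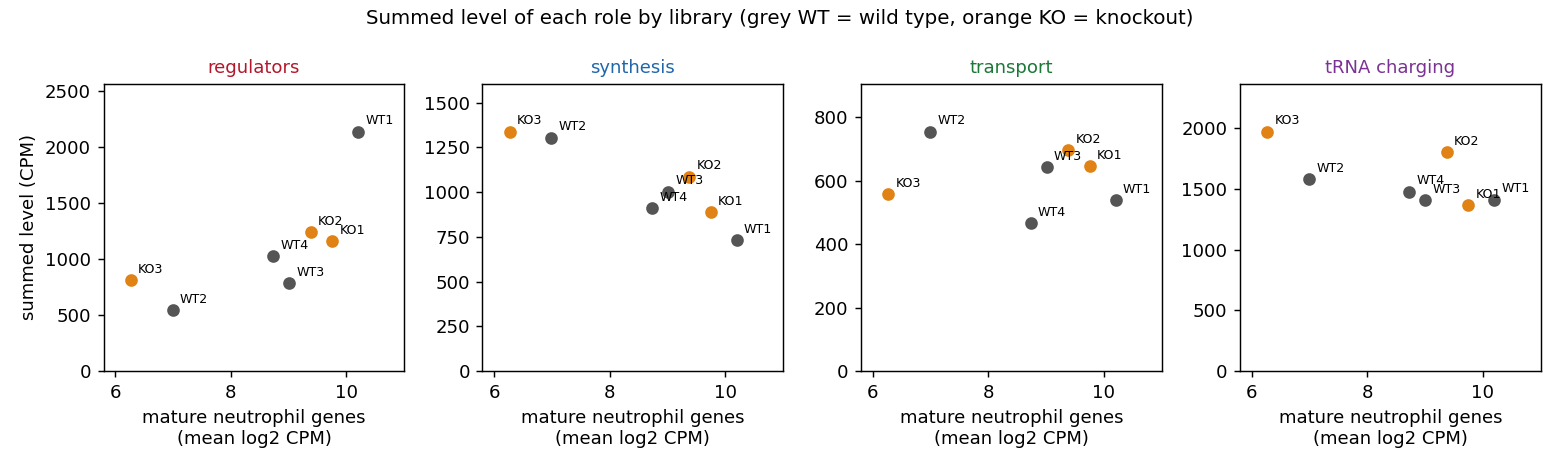
Summed level of each role in CPM against the mean log2 CPM of 10 mature neutrophil markers, 1 point per library (grey, wild type; orange, knockout). Regulators are highest in wild type 1, with the highest neutrophil level, and synthesis enzymes are highest in wild type 2 and knockout 3, with the lowest; knockout 3 lies just above the wild-type range for synthesis enzymes, at 1339 CPM against at most 1305 CPM.

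Other genes of the pathway gave no call either. Of the 6 kinases and sensors upstream of eIF2, 1 had a positive and 5 a negative difference, with a median of -0.10. Eif2ak4, which is GCN2, ranged from 15.2 to 33.7 CPM in the wild types and from 15.9 to 26.6 CPM in the knockouts (-0.23 ± 0.39). The 9 genes listed with eIF2 and eIF2B, which are their subunits and Ppp1r15b, gave 5 positive and 4 negative differences, with a median of 0.15. Eif2s3x, the X-linked gamma subunit of eIF2, was at 36.5, 49.5, 52.8 and 39.7 CPM in the wild types and 12.1, 20.5 and 43.8 CPM in the knockouts (-0.81 ± 0.44). Eif2b5, the catalytic subunit of eIF2B, ranged from 41.8 to 69.1 CPM in the wild types and from 63.5 to 105 CPM in the knockouts (0.53 ± 0.30).

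Among 20 tested ATF4 targets outside the 33, 14 differences were positive and 6 negative, with a median of 0.19. Slc6a9, a glycine transporter, was at 23.6, 21.9, 32.8 and 20.7 CPM in the wild types and 32.3, 56.1 and 55.9 CPM in the knockouts (0.96 ± 0.33). Pck2, a mitochondrial enzyme of gluconeogenesis, was at 15.5, 26.6, 32.4 and 12.4 CPM in the wild types and 40.0, 30.6 and 48.7 CPM in the knockouts (0.87 ± 0.40). Both were named for having the smallest unadjusted p of that list, and in both 1 knockout library lay just inside the wild-type range.

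The 13 other genes listed with the cytosolic synthetases, among them the scaffold genes Aimp1, Aimp2 and Eef1e1, gave 10 positive and 3 negative differences (median 0.09). The 17 mitochondrial synthetases gave 4 positive and 13 negative ones (median -0.26). Of the cytosolic group, Mars1, for methionine, had a difference of 0.53 ± 0.35 (SE) and Eef1e1, a scaffold of the synthetase complex, one of -1.28 ± 0.62 (SE). Of the mitochondrial group, Mars2 had a difference of -0.63 ± 0.49 (SE). Lars2, the mitochondrial leucine enzyme, went the other way, at 13.7, 8.14, 9.73 and 14.0 CPM in the wild types and 15.6, 19.0 and 14.6 CPM in the knockouts (0.52 ± 0.40). Of the 17, every knockout lay above every wild type for 1, Lars2, and below for 1, Fars2, where 1.57% of all tested genes did so each way. Of 8 further tested genes of serine and one-carbon metabolism, 5 were positive and 3 negative, with a median of 0.13. Srr, which makes D-serine from L-serine, was at 5.68, 6.89, 6.56 and 7.15 CPM in the wild types and 15.0, 8.58 and 12.5 CPM in the knockouts (0.87 ± 0.45). It was the 1 gene of those 8 with every knockout above every wild type, where 1.57% of all tested genes were so. Mthfs, a folate enzyme, was at 34.1, 8.93, 5.96 and 19.9 CPM in the wild types and 6.22, 8.88 and 2.73 CPM in the knockouts (-1.53 ± 0.70). Of 12 tested amino acid transporters outside the 33, 6 were positive and 6 negative, with a median of 0.05. The members of that list with the smallest unadjusted p, Slc7a8 and Slc38a7, were at or below 12.1 CPM in every library, with differences of 1.37 ± 1.15 (SE) and 1.31 ± 0.98 (SE).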

How the data were processed

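The authors deposited counts per Ensembl mouse gene for 7 libraries. The submitters' processing notes name RSEM 1.2.3, DESeq2 and mm10 without their roles; RSEM gives estimates, so the whole numbers may be rounded. The sources used here do not state the annotation release, the strand setting or the handling of multiply matching reads, so overlapping genes are uncertain. Symbols and coordinates came from GENCODE M21 (GRCm38).

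Groups came from the labels. The members and gene lists were chosen with earlier results of these data known. Knockout was compared with wild type over all genes with edgeR 4.0.16 in R 4.3.3 (filterByExpr, TMM scaling, robust quasi-likelihood F test, Benjamini-Hochberg adjustment over 12506 genes, threshold 0.05). Levels in CPM use the TMM library sizes and log2 CPM a prior count of 2. Tested genes held 99.6% of the counts, and 3 counts stood for 0.530 to 0.929 CPM in single libraries; limits cover counting error only.

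Named members were Slc1a4, the up to 4 of each role with the smallest unadjusted p, 8 well-known members set by name and those without overlap, with ranges for the rest; of the other lists, up to 2 each with the smallest unadjusted p were candidates. Promoter windows came from RefSeq (GRCm38.p6), and 27 of 33 members matched. In simulated counts for this comparison on 12506 genes with 200 changed (3 runs), the test recovered 1.33% of 2-fold, 42% of 4-fold, 78% of 8-fold and 84% of 16-fold changes, with 8.33 false calls per run. Same-numbered libraries deviated with correlations of 0.349, -0.225 and -0.184, so the numbers were not taken to pair samples. Alternatives were DESeq2 1.42.0, voom in limma 3.58.1, other scalings and filters, left-out libraries, the replicate block, the description stem and the neutrophil level as covariates.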

Additional observations from a re-analysis of the deposited data

Results flagged for a closer look

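Of 45 genes checked for a library far from the others of its group of 4 wild types, 3 were flagged, and chance flags about 1 in 20 groups. Ddit3 was at 149 CPM in wild type 1, far above the other 3 wild-type libraries at 58.7 to 65.6 CPM. Slc7a1 was at 215 CPM in wild type 2, against 135 to 146 CPM in the other wild types. Impact, an inhibitor of GCN2, was at 28.4 CPM in wild type 1, below the other wild types at 36.7 to 38.4 CPM.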

How the results depend on the processing

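Direction was counted over 18 alternatives for 29 genes, those with the smallest unadjusted p of each role and list apart from Slc1a4. Of their 520 fitted differences, 498 kept their direction, 22 reversed in 9 genes and 0 were called. Other genes described above are outside this count. Of those, Phgdh, Psph, Shmt2, Nars, Sars, Yars and Ppp1r15a reversed with the stem covariate. The smallest adjusted p of any listed gene over the alternatives was 0.888. DESeq2 called 1 gene overall. Slc1a4, whose direction its selection fixes, ran from 0.92 to 1.22 when single libraries were left out. It was 0.86 without wild type 2 and knockout 3 together, 0.90 within stem Y and 0.96 ± 0.45 (SE) with the stem as a covariate. With the replicate block it was 1.06, and that fit called 0 genes and gave a members' median of 0.17. The replicate numbers do not pair the samples. The members' median ran from -0.018 to 0.29 when single libraries were left out, where that of all tested genes ran from -0.045 to 0.036. The members' median was -0.13 within stem Y (-0.11 over all tested genes) and -0.057 with the stem as a covariate (-0.027). Members with all knockouts higher numbered 1 with upper-quartile factors (1.40% of all genes) or no filter (1.21%). They numbered 2 to 6 with single libraries left out (2.52% to 5.52% of all genes). Without wild type 2 and knockout 3 together they numbered 3 (9.68%, against 7.85% of all genes). Within stem Y they numbered 2 (6.45%, against 18.5%). Members with all knockouts lower numbered 0 with RLE factors (1.63%), upper-quartile factors (1.51%) or no filter (1.19%), 2 of 31 without wild type 2 and knockout 3 (6.45%, against 8.78% of all genes), 8 within stem Y (25.8%, against 18.3%), and 0 to 2 with single libraries left out (2.25% to 6.84% of all genes). Wild type 2 and knockout 3 held the 2 highest values of 8 members with upper-quartile factors, an alternative that, like the other scalings of the library order, was chosen after seeing the data. Causes were not tested.

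The fit within stem Y leaves 1 knockout library, which is assumed to vary like the wild types. For the 29 genes, reversed values within stem Y and with the stem as a covariate were, in that order, -0.079 and -0.025 for Atf5. They were -0.96 and -0.90 for Pycr1, -0.31 and -0.24 for Mthfd2, and -0.13 and -0.057 for Slc1a5. For Slc38a2 they were 0.18 and 0.24, for Gars -0.33 and -0.27, and for Mars1 -0.073 and -0.0078. Psat1 was -0.066 within stem Y and -0.017 with voom. Without wild type 2 and knockout 3 together, Atf5 was -0.040, Slc38a2 0.025 and Eif2ak4 0.060. With single libraries left out, Psat1 ran from -0.15 to 0.36, Gars from -0.018 to 0.70 and Eif2ak4 from -0.51 to 0.0074. At this depth and spread, the simulation recovered few 2-fold changes, so differences of the size seen in most members were not detectable.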

Other observations

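Some ATF4 targets outside the 33 genes varied far more between libraries than between genotypes, and the following were picked after their values were seen. Jdp2, a repressor of AP-1, was at 149, 5.95, 36.0 and 22.5 CPM in the wild types and 132, 85.5 and 3.51 CPM in the knockouts, a ratio of 42.6 between the highest and lowest library. Slc7a11, the light chain of the cystine importer, was at 300.0, 64.4, 198 and 138 CPM in the wild types and 257, 159 and 23.8 CPM in the knockouts. Both were lowest in knockout 3 and wild type 2 and highest in wild type 1.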
